A study of Mus musculus with 4 samples.

Results

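DNA replication and S phase genes were counted in single mouse leukaemia cells, with 40 genes taken by name from a table of 27998 gene symbols. The 40 encode the MCM helicase, proteins that license and fire origins, polymerase and primase subunits, the sliding clamp and its loaders, enzymes of nucleotide supply, histone and chromatin assembly factors, keepers of DNA methylation, repair proteins of the fork and regulators of entry into S phase. All 40 rows were present, and each passed 5 CPM (a gene's UMIs scaled to a total of 1000000 UMIs) over all cells, so no gene was lost to a filter on low values. In these cells their transcripts came together in the same cells. They were much lower in monocyte-like cells, low also in some clusters without a stage name, and showed no settled direction in neutrophil-like cells.

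The cells were GFP-positive leukaemia cells from bone marrow of C57BL6 mice 11 weeks old. Every leukaemia was started from c-Kit-positive marrow cells with the genotype Hif-1alpha Lox/Lox and CreERT2, into which a retrovirus had brought the leukaemia fusion gene MLL-AF9, and primary leukaemias grown in wild type mice were transplanted again. The 4 samples are Hif-1a wt with PBS, Hif-1a KO with PBS, Hif-1a wt with chemotherapy and Hif-1a KO with chemotherapy, 1 of each. Tamoxifen (1 mg) or vehicle was given for 5 days from day 10 after transplantation, and chemotherapy was then cytarabine at 100 mg/kg for 5 days and doxorubicin at 3 mg/kg for 3 days, with marrow taken 3 days after the last treatment. The promoter of CreERT2 and the number of mice per sample were not stated. The count table marks its cells by a barcode suffix, 1 to 4, and nothing ties a suffix to a sample. The suffixes are therefore 4 samples with no assigned group, and no comparison of genotype or treatment was made.

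Before S phase a ring of Mcm2 to Mcm7 is loaded on origins with the help of Cdc6, while geminin (Gmnn) keeps origins from being loaded again. In S phase Cdc45 and the GINS complex turn the ring into the working helicase, primase and polymerase alpha lay down primers, and the clamp Pcna holds the replicating polymerases on DNA. Most of these genes are known targets of E2F transcription factors, which are released when cells pass from G1 into S phase, and in marrow the division of precursors ends as granulocytes and monocytes mature.

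The promoters of the most abundant members are shown as background, and a link between promoter sequence and joint counting in cells was not tested. RefSeq promoters (GRCm38.p6, from 250 bases before to 50 after the start of each gene) were found for 31 of the 40, and none for Mcm4, Gins2, Gmnn, Rfc2, Dscc1, Exo1, Usp1, Tipin and Ccne2. Capitals mark the E2F-type words TTTCCCGC, TTTGGCGC, TTTCGCGC and TTTGCCGC, searched on both strands, where 2 words may overlap. The first 3 promoters belong to the most abundant members with such a word (Mcm3, not printed, tied with Mcm5 at 4292 UMIs over all cells and held 2 words), and the last, of Slbp, to the most abundant member without one.
Mcm6, chr1:128359656-128359955, minus strand: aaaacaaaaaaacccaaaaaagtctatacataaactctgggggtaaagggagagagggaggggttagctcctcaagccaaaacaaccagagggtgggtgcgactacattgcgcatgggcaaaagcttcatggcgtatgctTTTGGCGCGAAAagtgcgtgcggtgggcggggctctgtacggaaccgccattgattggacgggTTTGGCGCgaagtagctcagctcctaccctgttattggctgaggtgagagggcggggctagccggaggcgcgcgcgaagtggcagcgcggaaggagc
Mcm7, chr5:138171834-138172133, minus strand: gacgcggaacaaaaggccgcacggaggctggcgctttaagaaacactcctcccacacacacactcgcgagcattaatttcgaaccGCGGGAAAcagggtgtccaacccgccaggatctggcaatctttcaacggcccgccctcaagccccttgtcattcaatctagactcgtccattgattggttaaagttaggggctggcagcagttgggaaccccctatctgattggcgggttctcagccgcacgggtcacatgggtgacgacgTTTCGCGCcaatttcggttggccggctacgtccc
Mcm5, chr8:75109259-75109558, plus strand: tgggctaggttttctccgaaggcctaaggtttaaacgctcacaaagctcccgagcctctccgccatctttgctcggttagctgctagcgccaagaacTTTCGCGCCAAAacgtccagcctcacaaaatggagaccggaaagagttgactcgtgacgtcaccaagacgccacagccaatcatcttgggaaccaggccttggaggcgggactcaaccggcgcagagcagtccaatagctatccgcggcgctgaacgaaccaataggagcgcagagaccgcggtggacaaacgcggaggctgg
Slbp, chr5:33652525-33652824, minus strand: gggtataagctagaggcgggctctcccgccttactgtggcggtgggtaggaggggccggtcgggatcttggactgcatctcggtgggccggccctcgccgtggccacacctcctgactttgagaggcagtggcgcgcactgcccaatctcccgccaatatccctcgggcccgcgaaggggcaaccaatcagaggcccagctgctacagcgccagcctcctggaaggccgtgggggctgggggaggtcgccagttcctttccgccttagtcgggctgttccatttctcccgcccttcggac

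In Mcm6 a pair of overlapping words on opposite strands began at positions -110 and -106 from the start of the gene, and another at -47. In Mcm5 the overlapping pair began at -153 and -149, and in Mcm7 the words began at -165 and 16. An E2F-type word was present in 14 of the 31 member promoters (45.2%), in 15 of 48 promoters of other replication genes (31.3%), in 3 of 48 promoters of G2 and mitosis genes (6.25%) and in 704 of all 27025 genes with a promoter (2.61%). The CHR element TTTGAA, known from genes of mitosis, was present in 6 of the 31 (19.4%), against 34 of 48 G2 and mitosis genes (70.8%) and 20.2% of all genes. CCAAT was present in 21 of the 31 (67.7%) and in 41.1% of all genes. Tyms and Tk1, which formed the pair with the highest ratio below, held none of these 3 motifs. Of other strongly paired members, Clspn held an E2F-type word and Rad51ap1 and Cdc45 did not. Of weakly paired ones, Ubr7 held one and Blm did not. These are matches of letters in a window of 300 bases and not measured binding.

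The 40 genes lie on 17 chromosomes. In the GENCODE M21 annotation of GRCm38, exons of 11 of them overlap exons of a gene on the opposite strand, and Mcm7 (chromosome 5, 138164583 to 138172422) holds 2 microRNA genes on its own strand. The sources used here do not say whether counting used the strand, so reads of such neighbours may not be told apart for Mcm7, Cdc45, Gins2, Rfc2, Dscc1, Fen1, Tk1, Slbp, Ccne2, E2f8 and Ubr7. A 3' library counts 1 end of each transcript, so the levels below can be set side by side between genes without division by length.

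After barcodes over 10% mitochondrial UMIs were left out, 5456 of 5664 barcodes remained, between 1174 and 1625 in each suffix, with 7644436 to 9932649 UMIs and a median of 5315 to 6435 UMIs per cell. Of their barcode sequences, 15 occurred in more than 1 suffix. The sorted cells carried myeloid markers: the granulocyte precursor list summed to between 7229 and 17478 CPM, the neutrophil list to between 919 and 18377 CPM and the monocyte list to between 3371 and 6307 CPM. Basophil and mast cell markers summed to 389, 235, 140 and 101 CPM in suffixes 1 to 4. Markers of the following lineages were low. Erythroid markers summed to between 2.64 and 4.45 CPM, with Hbb-bs, Car1 and Slc4a1 among those at 0, and T and NK cell markers to between 2.69 and 13.9 CPM, with Cd3e, Cd3g, Cd4, Cd8a, Gzma and Ncr1 of 9 at 0. B cell markers summed to between 67.2 and 89.0 CPM, with Ebf1 and Pax5 among those at 0. Stromal and endothelial markers summed to between 84.4 and 105 CPM, with 6 of 11 at 0.

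The 40 members summed to 3855 CPM in suffix 1 (3812 to 3900, a 95% Poisson interval), 3190 CPM in suffix 2 (3152 to 3228), 2239 CPM in suffix 3 (2209 to 2268) and 2305 CPM in suffix 4 (2273 to 2337). Intervals here and below cover counting error only. Of the 40, 39 were highest in suffix 1, and E2f8 was highest in suffix 4. Among all 8240 genes with at least 5 CPM, 3579 were highest in suffix 1. In 30 of the 40 the highest suffix was at least 1.5-fold above the lowest, against 38.3% of all 8240 genes, and the median ratio of highest to lowest was 1.64 for the members and 1.404 for all genes. In bulk sums like these, more cells in S phase and more RNA per cell in S phase cannot be told apart. Marker levels also differed between suffixes: the macrophage list was at 151, 181, 555 and 561 CPM and the neutrophil list at 919, 1546, 18377 and 13199 CPM in suffixes 1 to 4. Their part in the member levels was not tested.

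Mcm2 to Mcm7, the 6 subunits of the helicase, were the most abundant group. Together they had 1005 CPM in suffix 1, 864 in suffix 2, 556 in suffix 3 and 555 in suffix 4. Mcm6 had 239, 205, 122 and 122 CPM in suffixes 1 to 4, the highest of the 6 in suffixes 1 and 2, and Mcm7 had 201, 164, 124 and 125 CPM. In suffixes 3 and 4 the levels of Mcm6 and Mcm7 differed by less than their intervals. Mcm4 had the lowest in each suffix, with 76.9, 72.2, 36.0 and 35.7 CPM. For all 3 genes the 95% intervals in suffixes 1 and 2 lay above those in suffixes 3 and 4. Mcm4 had the widest spread of the 6 (2.16-fold from highest to lowest) and Mcm5 and Mcm7 the narrowest (1.62-fold each).

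Among the factors that license and fire origins, Gmnn was the most abundant at 181, 137, 111 and 113 CPM in suffixes 1 to 4. Cdc6, the loader of the helicase, had 35.3, 30.1, 18.5 and 18.01 CPM. Cdc45, which joins the helicase at firing, had 51.1, 39.9, 37.8 and 37.8 CPM, so suffix 1 stood above the other three, which differed by less than their counting intervals. Gins2, a GINS subunit, and Dtl, which directs the destruction of Cdt1 in S phase, were highest in suffix 1 at 75.5 and 51.8 CPM. The primase subunit Prim1 had 76.1, 57.6, 45.7 and 49.0 CPM, and Pola1, the catalytic subunit of polymerase alpha, 25.4, 21.01, 13.8 and 16.6 CPM. Pold3, a small subunit of polymerase delta, varied less, with 45.5, 43.7, 31.5 and 33.4 CPM.

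Of the clamp group, the loader subunit Rfc2 had 230, 185, 148 and 158 CPM. Pcna had 116, 88.1, 68.0 and 75.9 CPM, the flap nuclease Fen1 116, 85.6, 59.8 and 62.7 CPM, and Rpa2 of the single-strand binding complex 141, 117, 81.6 and 81.6 CPM. Dscc1, of an alternative clamp loader, stayed under 22 CPM in each suffix. Each of these was highest in suffix 1, and for Dscc1 the intervals of suffixes 1 and 4 overlapped. The nucleotide enzymes differed in pattern. Thymidylate synthase (Tyms) had 117, 87.3, 71.6 and 72.3 CPM, and thymidine kinase (Tk1) had 106 CPM in suffix 1 and between 71.6 and 78.1 in the other three.

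Slbp, which binds the stem-loop of histone mRNA, was the most abundant of all 40 at 297, 260, 160 and 178 CPM. Nasp, a histone chaperone, had 155, 123, 98.7 and 97.8 CPM, while Chaf1b of chromatin assembly factor 1 and Casp8ap2, a factor of histone gene expression, stayed under 50 CPM. The methylation group had the widest spread. Cdca7, a partner of the remodeller Hells, had 165, 142, 67.8 and 68.9 CPM, the largest ratio of highest to lowest among the 40 (2.43), and Uhrf1, which brings the maintenance methyltransferase to new DNA, had 57.8, 48.9, 25.8 and 30.2 CPM (2.24). For both genes the intervals in suffixes 1 and 2 lay above those in suffixes 3 and 4.

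Repair and checkpoint genes were less uniform. Ung, which removes uracil from DNA, had 103, 83.9, 52.1 and 51.0 CPM, and Exo1, a nuclease, 19.8, 16.5, 8.96 and 10.2 CPM. Tipin, of the fork protection complex, had 244, 215, 137 and 142 CPM, and Usp1, a deubiquitinase of fork repair, 86.7, 85.3, 62.8 and 59.1 CPM. Levels in suffixes 3 and 4 were close to each other for all 4 of these genes. Rad51ap1 was high in suffix 1 only, with 37.4 CPM against 23.1, 25.6 and 26.7 CPM, and the checkpoint adaptor Clspn had 25.5, 19.3, 20.1 and 21.2 CPM. The helicases Blm and Brip1 had 18.3, 15.9, 14.7 and 12.6 CPM and 9.68, 8.29, 7.75 and 8.30 CPM. Of the last group, Ubr7 had 37.7, 32.3, 19.1 and 18.8 CPM and cyclin E2 (Ccne2) 18.4, 14.6, 11.5 and 12.05 CPM, whereas Wdr76 and E2f8 had a highest-to-lowest ratio of 1.26 and 1.32. In E2f8, a repressor among the E2F factors, the intervals of all 4 suffixes overlapped.

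**Figure D1:**
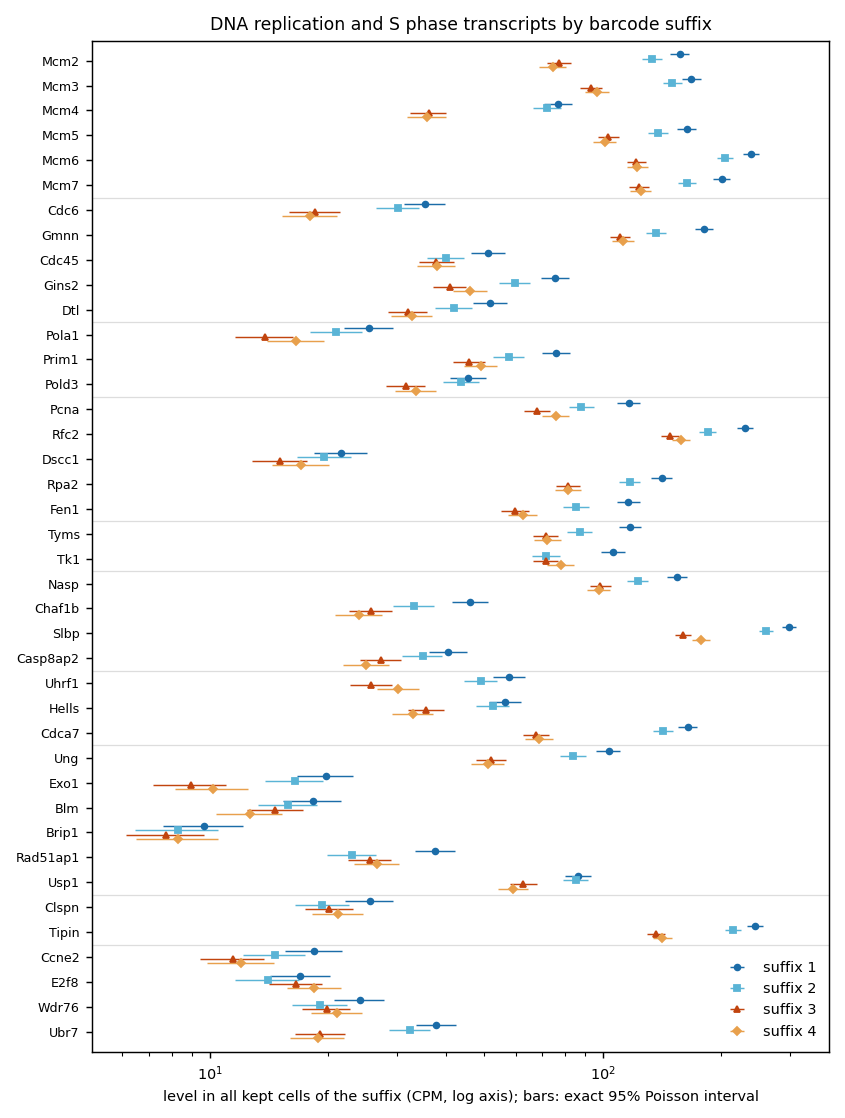
Level of each of the 40 members (CPM, log axis) in the kept cells of barcode suffixes 1 to 4, with exact 95% Poisson intervals as bars and grey lines between groups of genes by role. Suffix 1 is highest for 39 of the 40, and Cdca7, at 165 CPM in suffix 1 and 67.8 CPM in suffix 3, is the most widely spread.

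To count members per cell at equal depth, each cell was thinned to 2000 UMIs. This left out 114 of 5456 cells that had fewer (29, 20, 45 and 20 in suffixes 1 to 4). Of the thinned cells, 54.9% had a UMI of 5 or more members in suffix 1 (52.0 to 57.8%, an exact binomial interval), 48.4% of those in suffix 2 (45.6 to 51.2%), 23.1% of those in suffix 3 (21.04 to 25.26%) and 25.8% of those in suffix 4 (23.5 to 28.2%). Without thinning the shares were 77.5%, 77.5%, 42.0% and 46.5%. Suffixes 1 and 2 thus had the same share in unthinned cells and differed once depth was equal. No cell type known to lack these genes was sorted alongside, so no share from free RNA can be set beside these.

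The members were spread unevenly over cells. In suffix 1, 5.50% of thinned cells had no UMI of any member, against 0.162% if each member fell in cells independently at its own share. The values were 6.90% against 0.410% in suffix 2, 20.8% against 4.23% in suffix 3 and 19.7% against 3.51% in suffix 4. At the other end, 17.4%, 12.02%, 6.39% and 6.999% of cells had 10 or more members, against 4.04%, 1.68%, 0.0357% and 0.0571%. Each suffix thus held more cells with none and more cells with 10 or more members than independent detection gives. The share with 5 or more lay below the independent value in suffixes 1 and 2 (54.9% against 69.8% and 48.4% against 56.6%). It lay above that value in suffixes 3 and 4 (23.1% against 16.8% and 25.8% against 19.7%). The variance of the number of members per cell was 14.9, 12.8, 10.7 and 11.6, against 4.43, 4.01, 2.62 and 2.75.

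**Figure D2:**
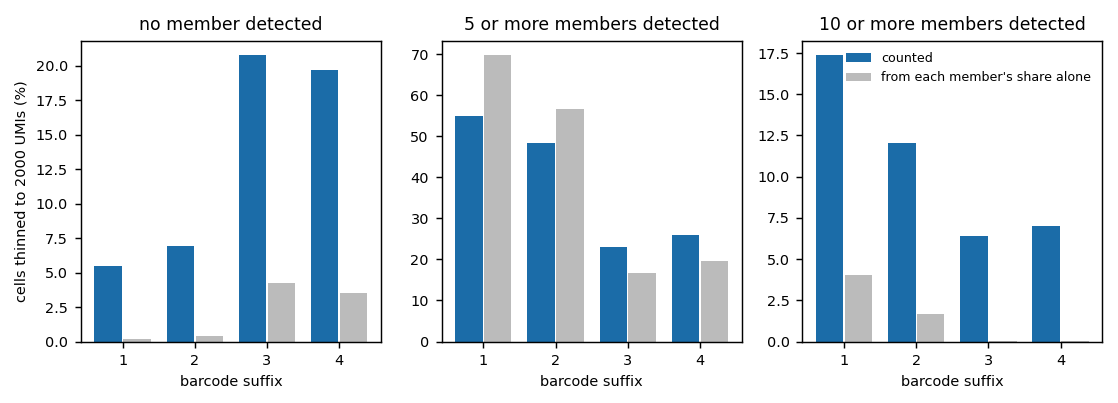
Share of thinned cells (%) with no member, with 5 or more and with 10 or more members detected, by barcode suffix, as counted (blue) and as each member's own share gives if detection were independent (grey). The counted share with 10 or more members lies above the grey bar in each suffix, at 17.4% against 4.04% in suffix 1.

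Pairs of members showed the same joint detection. Of 780 pairs, 364 were expected in at least 5 thinned cells of each suffix. The median ratio of cells with both members to the number expected was 1.33 in suffix 1, 1.35 in suffix 2, 1.97 in suffix 3 and 1.92 in suffix 4. Pairs of G2 and mitosis genes gave 1.33, 1.29, 1.61 and 1.63. Pairs of 12 constant reference genes gave 1.00 in each suffix and pairs of glycolytic genes 1.01 to 1.02. These 2 lists hold abundant genes: Eef1a1 had at least 7451 CPM in each class by G2 and mitosis UMIs, and the glycolytic list summed to between 4232 and 6243 CPM. A gene seen in nearly every cell must give a ratio near 1, so these values are no baseline for the members. In 328 of the 364 pairs the ratio was above 1 in every suffix. The highest was for the thymidylate enzymes, Tyms and Tk1, which were counted together in 193 cells where 56.4 were expected (55 against 23.5, 50 against 13.8, 43 against 9.73 and 45 against 9.27 in suffixes 1 to 4).

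Members differed in how strongly they paired. The median ratio over its pairs was 1.88 for Tk1, 1.81 for Clspn, 1.81 for Rad51ap1 and 1.73 for Cdc45. It was 1.28 for Rfc2 and 1.22 for Ubr7, and 1.10 for Blm, which had 2 pairs only. The pairs of 2 Mcm genes had a pooled median of 1.58 and all other pairs 1.51. Slbp with Blm was the single pair under 1 over all cells, with 36 cells seen and 36.5 expected.

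The helicase genes were next used to sort cells. Cells with 3 or more UMIs of Mcm2 to Mcm7 in 2000 (372, 312, 188 and 160 cells) were set against cells with none (333, 404, 957 and 806 cells), and the other 34 members were read in both. Of the 34, 29 were at least 1.5-fold higher in each of the 4 suffixes and none was lower, against 3.67% of all genes higher and 2.34% lower. The median log2 ratio was 2.10, against -0.03 for all genes, 0.05 for the constant reference and 0.46 for G2 and mitosis genes. The summed level was 4.08-fold higher (interval 3.93 to 4.24). With cells thinned to 1000 UMIs, 16 of the 34 passed in each suffix (median log2 1.71).

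Ung had the largest ratio (log2 3.66). It had 179, 143, 138 and 119 CPM in cells with 3 or more Mcm UMIs and 10.5, 38.4, 10.5 and 8.06 CPM in cells without. Tipin had 315, 330, 293 and 328 CPM against 99.1, 86.6, 47.5 and 44.0 CPM, and Slbp 409, 345, 338 and 300 CPM against 164, 127, 93.0 and 99.3 CPM. For each of the 3 genes the classes were far apart in every suffix. Dscc1 and Ccne2 had 31.2 to 46.5 CPM and 16.1 to 37.2 CPM in the upper class, and their lower class held only 1 to 4 UMIs in a suffix, so their ratios are poorly measured. The smallest ratio that met the 1.5-fold limit in each suffix was that of Rfc2, with 278, 258, 239 and 228 CPM against 150, 129, 113 and 109 CPM (log2 1.03).

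The 5 members that did not reach the limit in every suffix were Pold3 (median log2 1.41, from 0.52 to 1.77), Casp8ap2 (1.08, from 0.02 to 1.496), E2f8 (0.95), Blm (0.90) and Ubr7 (0.90). Of 52 other replication genes with at least 5 CPM, 32 were higher and none lower, with a median log2 of 1.57. The ribonucleotide reductase subunit Rrm2 (3.24) and DNA ligase 1 (Lig1, 2.94) had the largest ratios. Dut, which destroys dUTP and was the most abundant, had 2.19, and Pold4, the second, had -1.14 with no call.

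The other members went up by steps with the Mcm count. In suffix 3 they summed to 684 CPM in cells without an Mcm UMI, 1745 CPM with 1 or 2, 3229 CPM with 3 to 5 and 4864 CPM with 6 or more (22 cells). In suffix 1 the steps were 1312, 2365, 3675 and 4694 CPM, in suffix 2 they were 1183, 2132, 3223 and 4011 CPM, and in suffix 4 734, 1911, 3382 and 3500 CPM, the last in 12 cells. At 3 to 5 Mcm UMIs the intervals of suffixes 2, 3 and 4 overlapped. Mcm-free cells made up 29.1%, 32.8%, 60.6% and 58.2% of cells in suffixes 1 to 4. Over the same steps G2 and mitosis genes had 3815, 4766, 4667 and 5480 CPM in suffix 1 and 3494, 4298, 4142 and 3789 CPM in suffix 2. They rose at each step in suffix 3 (2268, 3777, 4280 and 4477 CPM) and in suffix 4 (2745, 4130, 4189 and 4375 CPM).

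**Figure D3:**
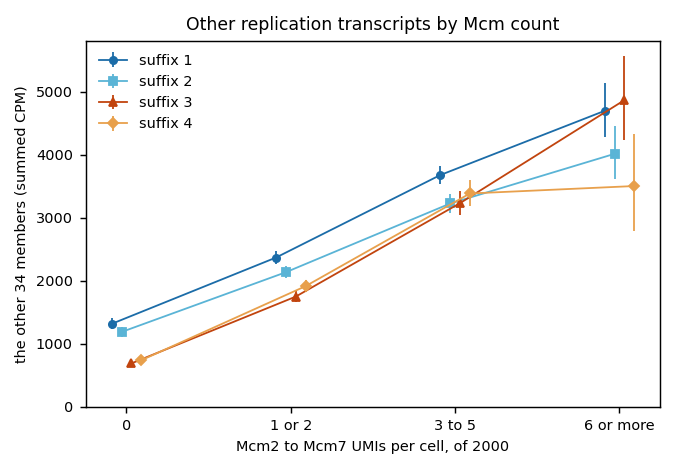
Summed level of the 34 members other than Mcm2 to Mcm7 (CPM, with exact 95% Poisson intervals) in thinned cells with 0, 1 or 2, 3 to 5 and 6 or more UMIs of Mcm2 to Mcm7, 1 line per barcode suffix. The level goes from between 684 and 1312 CPM without an Mcm UMI to between 3223 and 3675 CPM with 3 to 5.

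Myeloid stages were taken from clusters of cells named by marker genes. The clusters were built without 353 cell cycle, histone, ribosomal and mitochondrial genes, and 3 of 12 could be named. The monocyte-like cluster (760 cells) was led by Apoe, Lpl, Lyz2, Ifitm3 and S100a6, the granulocyte precursor-like cluster (432 cells) by Nkg7, Ms4a3, Mpo, Elane and Rgcc, and the neutrophil-like cluster (375 cells) by Ngp, Camp, S100a9, BC100530 and Gm5483. Each was set against all remaining cells of its suffix, wherever both sides held 30 cells or more, which left suffixes 3 and 4 for monocyte-like and neutrophil-like cells and suffixes 1 and 2 for granulocyte precursor-like cells. A gene is called where it differs at least 1.5-fold in the same direction in both suffixes.

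Monocyte-like cells had low levels of almost all members. The sum was 811 CPM (769 to 854) in suffix 3 and 771 CPM (727 to 816) in suffix 4, against 2546 and 2633 CPM in the other cells. Of the 40, 38 were called lower and none higher, against 14.1% of all genes lower and 10.3% higher. The median log2 ratio was -1.86 for the members and -0.04 for all genes. After thinning, 3.42% and 4.12% of monocyte-like cells had 5 or more members, against 29.3% and 32.9% of other cells. Without thinning these were 12.9% and 13.7% against 51.4% and 57.2%, with a median of 4232 and 4163 UMIs in monocyte-like cells and 6067 and 6081 in other cells. G2 and mitosis genes were lower there too, with 47 of 52 called.

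All 6 Mcm genes were called lower in monocyte-like cells. Mcm7 had 34.1 and 29.9 CPM against 143 and 145 CPM in the other cells of suffixes 3 and 4, and Mcm2 22.2 and 17.95 CPM against 89.3 and 86.6 CPM. The nucleotide enzymes stood further apart. Tk1 had 6.82 and 7.31 CPM against 85.5 and 93.2 CPM (log2 -3.49), and Tyms 15.3 and 11.3 CPM against 83.7 and 85.3 CPM (log2 -2.59). Rad51ap1 was counted 4 times and once in the monocyte-like cells (2.27 and 0.665 CPM, against 30.6 and 32.2 CPM). Exo1 had 3 UMIs in suffix 3 and none in suffix 4.

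Other members kept much of their level. Rfc2 had 98.9 and 94.4 CPM against 159 and 172 CPM (log2 -0.77), and Slbp 90.3 and 95.1 CPM against 175 and 195 CPM (log2 -0.99). Cdc6 had 9.66 and 9.97 CPM against 20.4 and 19.7 CPM (log2 -0.96), and Usp1 34.1 and 33.9 CPM against 69.0 and 64.4 CPM (log2 -0.95). The 2 members without a call were Casp8ap2, with 21.02 and 17.29 CPM against 28.6 and 26.7 CPM, and E2f8, with 10.8 and 14.6 CPM against 17.9 and 19.3 CPM. For both, the intervals of the monocyte-like level reached the level of the other cells in at least 1 suffix.

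Of 52 other replication genes, 42 were called lower in monocyte-like cells and 4 higher (Pold4, Dna2, Ctc1 and E2f2). The highest in level were Pold4, a small subunit of polymerase delta, with 450 and 496 CPM against 229 CPM in the other cells of both suffixes, and Dut, with 61.9 and 54.5 CPM against 322 and 340 CPM. The largest ratios were those of Rrm2 (log2 -3.88, with 11.9 and 3.99 CPM against 119 and 116 CPM) and Mcm10 (log2 -2.84, from 1 UMI in each suffix). Pold4 and Pold3 thus differed in direction, with Pold3 at 16.5 and 19.3 CPM against 34.8 and 36.5 CPM.

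Neutrophil-like cells had 2092 CPM of the members in suffix 3 (2016 to 2169) and 2191 CPM in suffix 4 (2098 to 2288), against 2262 and 2319 CPM in the other cells. Brip1 alone was called lower, from 5 UMIs in each suffix, and no member was called higher, against 17.3% of all genes lower and 4.58% higher. The median log2 ratio was -0.07, against -0.30 for all genes, and it took the other sign under 3 of the other settings (0.02, 0.16 and 0.38). At a coarser clustering (resolution 0.5) it was -0.41, with 9 members called lower. No direction is therefore given for these cells. Shares of cells with 5 or more members were 28.9% and 26.5%, against 22.3% and 25.7% of other cells.

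Several members had similar levels in neutrophil-like and other cells. Slbp had 157 and 193 CPM against 161 and 176 CPM, Pcna 65.0 and 78.3 CPM against 68.4 and 75.6 CPM, and Tk1 67.1 and 84.7 CPM against 72.3 and 77.3 CPM. Cdca7 had 96.0 and 79.4 CPM against 63.2 and 67.6 CPM and Ung 37.5 and 33.9 CPM against 54.4 and 53.1 CPM, the first above and the second below in both suffixes without a call. Ccne2 had the largest positive median (log2 0.74), with 12.996 and 26.5 CPM against 11.2 and 10.3 CPM.

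Granulocyte precursor-like cells had 2924 CPM (2827 to 3023) in suffix 1 and 2594 CPM (2521 to 2669) in suffix 2, against 4026 and 3359 CPM in the other cells. Of the 40 members, 9 were called lower and none higher, against 7.39% of all genes lower and 2.26% higher. The median log2 ratio was -0.46, against -0.11 for all genes, and was negative under each other setting (-0.49 to -0.16). The count of 9 is not firm: it was 1 after marked doublets and the 5% of cells with most UMIs were left out and the rest clustered again, and 2 with all barcodes. In suffix 1 alone it was 15, but a count over fewer suffixes cannot fall, so this does not bear on how firm it is. The 9 were Pola1, Pcna, Dscc1, Tyms, Tk1, Exo1, Brip1, Rad51ap1 and Clspn. Of 52 G2 and mitosis genes, 33 were called lower in the same cells (median log2 -0.85).

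Rad51ap1 was the furthest below, with 16.04 and 10.87 CPM against 41.3 and 26.5 CPM in the other cells of suffixes 1 and 2. Tyms had 78.5 and 52.2 CPM against 124 and 97.3 CPM, Tk1 63.3 and 46.2 CPM against 114 and 79.1 CPM, and Pcna 78.5 and 59.8 CPM against 123 and 96.2 CPM. Other members were nearer to the other cells. Cdca7 had 157 and 141 CPM against 166 and 143 CPM, Mcm2 134 and 121 CPM against 161 and 137 CPM, and Usp1 86.1 and 83.7 CPM against 86.8 and 85.7 CPM. Mcm7 was apart in suffix 1 (112 against 217 CPM) and less so in suffix 2 (127 against 175 CPM). After thinning, 46.5% and 42.5% of these cells had 5 or more members, against 56.4% and 49.9% of other cells, and the intervals met in both suffixes. Without thinning the order was the opposite (80.6% and 80.4% against 77.0% and 76.8%), at a median of 6533 and 7344 UMIs against 5968 and 6162 UMIs.

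**Figure D4:**
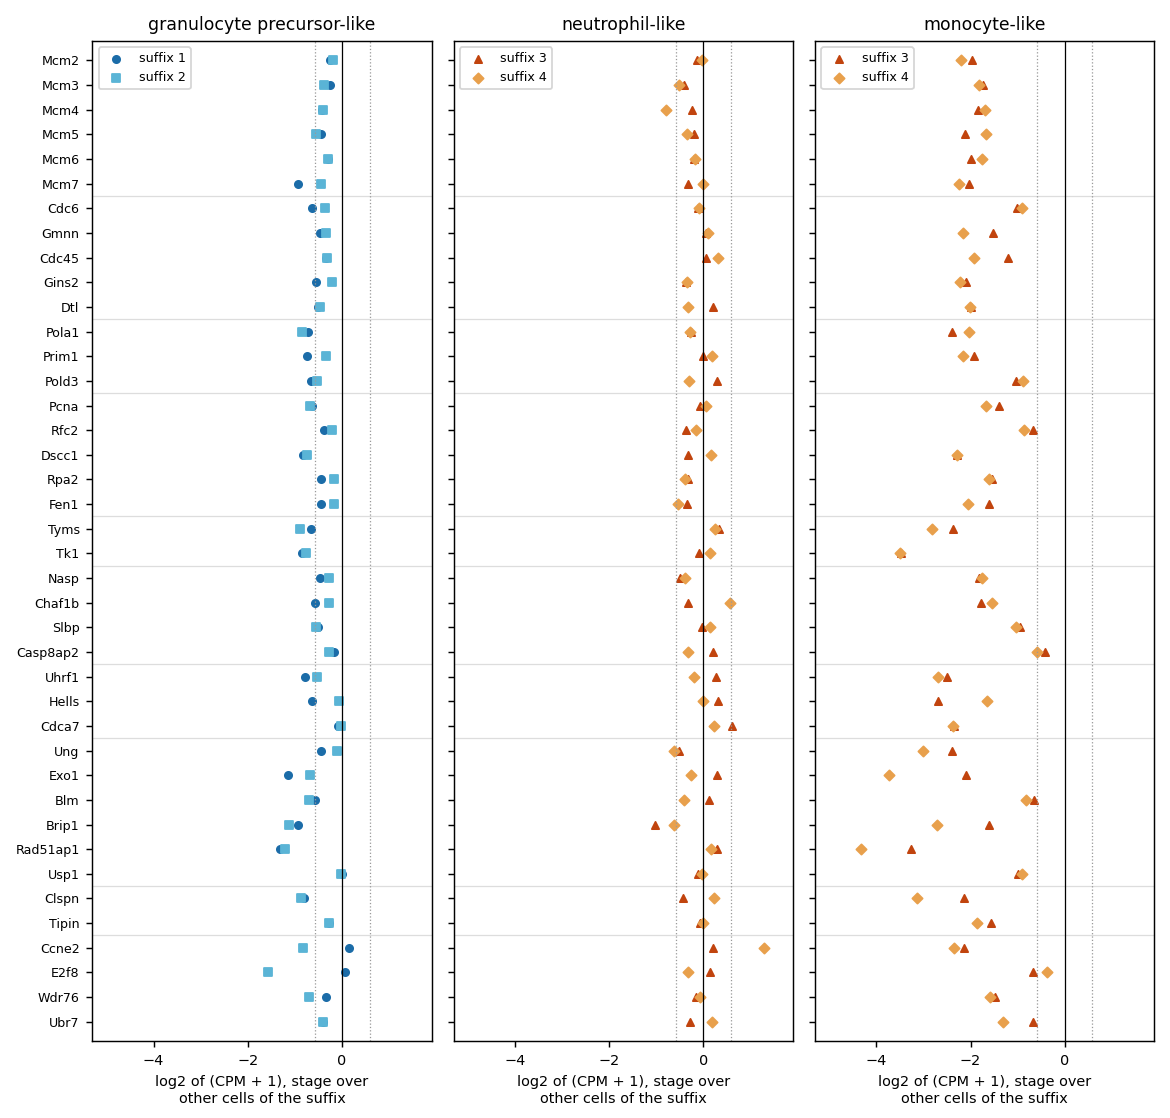
Log2 ratio of each member between a named stage and all remaining cells of its suffix, for the 2 suffixes with enough cells, with dotted lines at 1.5-fold either way. In monocyte-like cells all points lie below 0 and 38 of 40 members pass 1.5-fold in both suffixes, whereas in neutrophil-like cells the points lie on both sides of 0.

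The clusters that had most of the members carried no stage name. Cluster 3, led by Phgdh, Fabp5, Rrm2, 2810417H13Rik and Mif, had 4900 CPM (272 and 315 of its 638 cells in suffixes 1 and 2). Cluster 8, led by Ung, Ccnd1, E2f1, Rfc3 and Prdx4, had 4192 CPM of the members and 3411 CPM of G2 and mitosis genes. Cluster 9, led by Hist1h2ap, Nusap1, Ube2c, Top2a and Prc1, had 4205 CPM of the members and 11365 CPM of G2 and mitosis genes. Clusters led in part by cell cycle genes thus still formed, although those lists were left out of clustering, and which stage their cells belong to was not tested. Cluster 4 (518 cells), led by Cpa3, Npy, Mcpt8, Ptprcap and Adgrg1, had 3440 CPM of the members. Within cluster 8 the member level was 4595, 3790, 4280 and 4118 CPM in suffixes 1 to 4, and within cluster 1, led by Gpx3, Cd28, Itgb5, Pld4 and Tsc22d1, it was 2010, 1707, 1734 and 1695 CPM. In cluster 2, led by Cd74, Gsn, Kctd14, Wfdc17 and Tsc22d1, it was 1793, 1574, 967 and 948 CPM. Low levels were not confined to the monocyte-like cluster, which had 808 CPM over all suffixes. Cluster 2 had 1088 CPM, and cluster 10, led by Prg2, Prg3, Retnla, Clec4a2 and Mogat2, had 1122 CPM. Cluster 11 (37 cells, led by Ifit3, Irf7, Isg15, Rsad2 and Cd74) had 533 CPM. It had 12 raised monocyte markers but did not meet the naming rule.

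Because of those clusters, the cells of each suffix were also ordered by each marker list without clustering, a step added after the clusters had been seen. In thinned cells cut into up to 5 classes by the summed macrophage markers, the members went from 1991 CPM in cells without a macrophage UMI to 984 CPM in cells with 3 or more in suffix 3, and from 2197 to 864 CPM in suffix 4. In suffixes 1 and 2, where few cells had 2 or more (74 and 92), they went from 3579 to 2919 CPM and from 2989 to 2549 CPM. By monocyte markers the lowest and highest class had 3363 and 2688, 3012 and 2417, 2173 and 1063, and 2396 and 1143 CPM in suffixes 1 to 4. Members were thus fewest in the cells richest in either list in each suffix, which also held for stem and progenitor markers (below).

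The granulocytic lists gave other patterns. By granulocyte precursor markers the lowest and highest class had 3038 and 3409, 2848 and 2748, 1079 and 2102, and 1451 and 2044 CPM, so the 2 ends differed beyond counting error in suffixes 1, 3 and 4 and not in suffix 2. The largest value was at neither end. It was in class 2 of 5 in suffix 1 (3961 CPM), class 3 in suffix 2 (3227 CPM) and class 4 in suffixes 3 and 4 (2247 and 2164 CPM). By neutrophil markers the ends had 3599 and 3071, 3036 and 2558, 1772 and 1604, and 2066 and 1664 CPM, with overlapping intervals in suffix 3. Neutrophil markers take a large part of the UMIs of such cells: with those UMIs out of the total, the ends were 1772 and 1779 CPM in suffix 3 and 2066 and 1793 CPM in suffix 4. By stem and progenitor markers such as Cd34, Kit and Flt3 the ends had 4016 and 2503, 3401 and 2213, 1900 and 1277, and 2006 and 1294 CPM. As with the monocyte and macrophage lists, the highest class had the fewest members in each suffix. By cluster the picture was mixed. Markers of this list were raised in cluster 4 (7 markers, 3440 CPM of the members) and in cluster 2 (5 markers, 1088 CPM). The classes are ranges of a count with many ties: 251 to 401 cells of a suffix sat on the upper edge of the lowest stem and progenitor class.

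Within the neutrophil-like cells, those with 5 or more members (57 in suffix 3 and 39 in suffix 4) were set beside those with 0 or 1 (83 and 61). Ltf, lactoferrin of the secondary granules, had 649 CPM (510 to 815) against 1675 (1484 to 1884) in suffix 3 and 397 (270 to 564) against 1262 (1071 to 1478) in suffix 4. Lyz2, lysozyme, had 3500 against 7747 CPM and 3205 against 8295 CPM. Camp, cathelicidin, went the other way, with 27614 against 19157 CPM and 33923 against 16697 CPM. Elane had 6123 against 5301 CPM and 2500 against 5041 CPM, so its direction differed between suffixes. The neutrophil list as a whole made up 13.6% against 14.98% of UMIs in suffix 3 and 13.9% against 11.0% in suffix 4. The cells with many members had more UMIs before thinning (median 8231 against 5931 and 7304 against 5128).

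In monocyte-like cells, 13 and 14 cells had 5 or more members and 249 and 234 had 0 or 1. Apoe had 76.9 CPM (9.32 to 278) against 733 (660 to 812) in suffix 3 and 286 CPM (123 to 563) against 964 (877 to 1057) in suffix 4, and Lyz2 10346 against 17396 CPM and 12250 against 21748 CPM. Both genes were named after their values were seen. The monocyte list, which holds neither gene, was nearly level, at 1.12% against 1.04% of UMIs in suffix 3 and 1.08% against 1.10% in suffix 4. The macrophage list, which holds Apoe, was lower in the cells with 5 or more members. It made up 0.104% against 0.177% of UMIs in suffix 3 and 0.0821% against 0.200% in suffix 4. In granulocyte precursor-like cells Elane had 15175 against 9790 CPM and 14195 against 10154 CPM, and Mpo 5244 against 4210 CPM and 5219 against 3231 CPM. Cebpe, a regulator of granulocyte maturation, had 431 against 532 CPM and 381 against 433 CPM, with overlapping intervals. These splits were also added after the values by stage had been seen. Within stages, the median ratio of counted to expected pairs was 1.28 and 1.26 over 97 pairs in granulocyte precursor-like cells and 1.52 and 1.48 over 6 pairs in neutrophil-like cells. The 1 pair that could be counted in monocyte-like cells had 0.905 and 0.988.

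Replication and mitosis follow each other in the cycle, and their transcripts overlapped in part. Cells of each suffix were cut into 4 classes of about equal size, kept uneven by ties, by the thinned UMIs of 54 G2 and mitosis genes, none of which is a member. Of the 40 members, 26 were at least 1.5-fold higher in the highest than in the lowest class in each suffix and none was lower, against 3.72% of all genes higher and 2.2% lower. The median log2 ratio was 1.55, and the summed level was 2.54-fold higher (2.45 to 2.63). The mean number of members per cell was 3.99, 5.34, 7.399 and 6.66 from the lowest to the highest class in suffix 1 and 3.50, 4.49, 6.56 and 5.92 in suffix 2. It was 1.58, 2.19, 2.96 and 5.94 in suffix 3 and 1.47, 2.25, 3.51 and 5.91 in suffix 4. The third class was thus highest in suffixes 1 and 2 and the highest class in suffixes 3 and 4, where the classes also began at lower counts (7 and 8 UMIs against 13 and 11).

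The members ranged widely along this axis. Tk1 had 135, 126, 156 and 205 CPM in the highest class and 32.6, 18.1, 9.26 and 5.35 CPM in the lowest (log2 3.33), and Tyms 180, 154, 157 and 159 CPM against 47.6, 22.6, 14.4 and 2.67 CPM (log2 3.04). Rad51ap1 had 56.2, 43.7, 66.8 and 48.5 CPM against 7.52, 7.53, 2.06 and 0 CPM, and Clspn 29.96, 24.5, 43.2 and 43.7 CPM against 10.0, 1.51, 2.06 and 4.01 CPM. These 4 were far higher in the class with most mitotic transcripts in each suffix. Ung differed in direction, with 43.1 and 40.2 CPM against 77.7 and 66.3 CPM in suffixes 1 and 2, but 91.9 and 53.4 CPM against 16.5 and 8.02 CPM in suffixes 3 and 4. Cdca7 was nearly level in suffix 2 (122 against 123 CPM) and apart in suffix 3 (83.6 against 19.6 CPM). Rfc2 had the smallest median (log2 0.45).

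**Figure D5:**
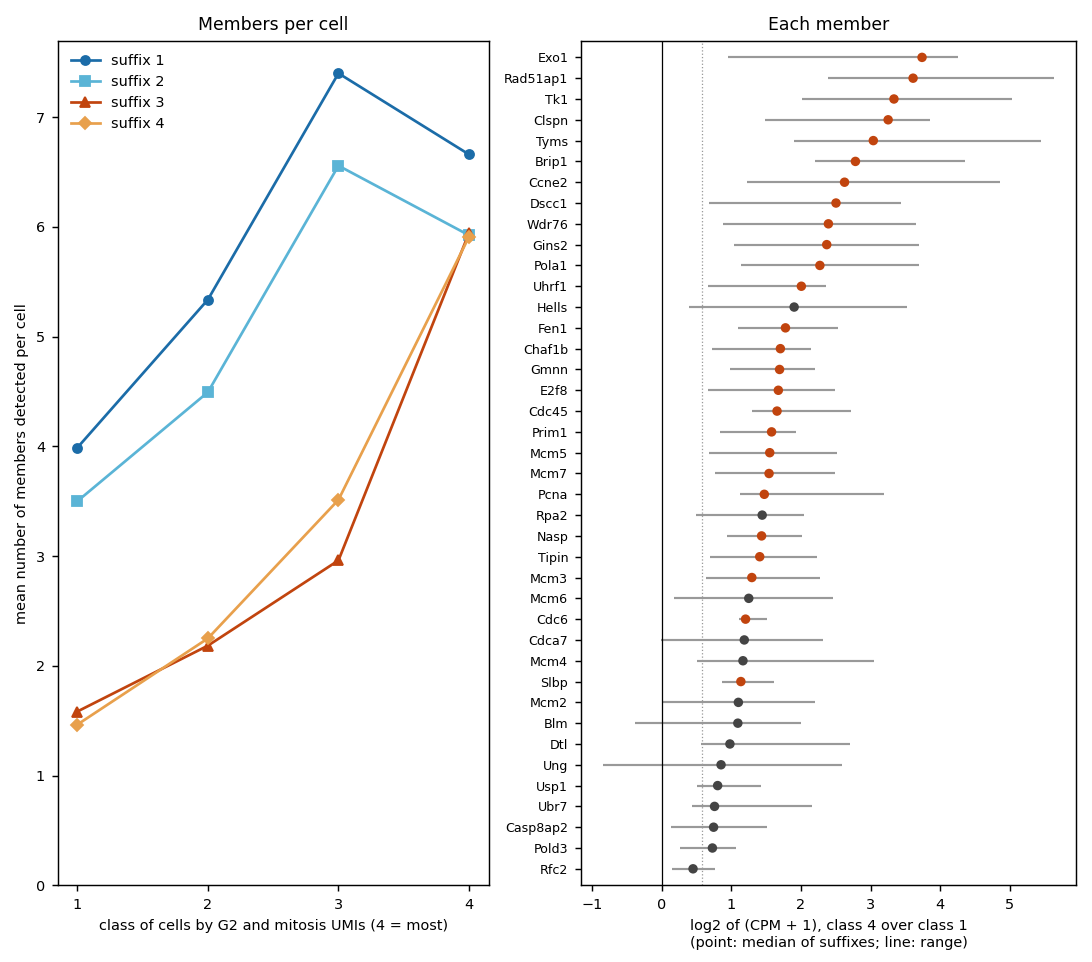
Left: mean number of members detected per thinned cell by class of G2 and mitosis UMIs, 1 line per barcode suffix. Right: log2 ratio of each member between the highest and lowest class, with the median of suffixes as a point (red where at least 1.5-fold in each) and the range as a line. Rfc2 has the smallest median (0.45), and the line of Ung runs from -0.84 to 2.59.

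Histone transcripts, most of which are made in S phase, gave a narrower picture in a comparison also added after other values had been seen. Cells of each suffix were ordered by the UMIs of 65 histone genes. Most cells had none, so 4 even classes could not be cut. The cells with the most (109, 99, 183 and 128 cells in suffixes 1 to 4, fewer than in an even class) were set against all cells without a histone UMI (800, 877, 1119 and 1030 cells). Of the 40 members, 6 were higher in each suffix and none was lower, against 2.05% of all genes higher and 1.91% lower, and the median log2 ratio was 0.79. The 6 were Tyms, Tk1, Blm, Rad51ap1, Clspn and E2f8. Tk1 had 142, 141, 194 and 281 CPM in the histone-rich cells against 64.4, 42.8, 25.5 and 30.6 CPM (log2 2.29). Ung had 101, 55.6, 49.2 and 35.2 CPM against 97.5, 84.9, 34.4 and 35.0 CPM (log2 0.03), and Mcm3 124, 101, 104 and 78.1 CPM against 153, 148, 59.0 and 58.3 CPM (log2 0.06), so both took opposite directions in different suffixes. Of 52 G2 and mitosis genes, 40 were higher (median log2 2.20). Most replication-dependent histone transcripts have no poly(A) tail and are poorly caught by a 3' library.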

How the data were processed

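The deposited file is a table of UMI counts per gene and cell barcode, made by the authors with Cell Ranger 1.3 and mm10, per the submitters' processing notes and the series' design text. Nothing states whether counting used the strand. Libraries were 10x 3' V2, per the labels' protocols. The members and lists were chosen with earlier results of these data known.

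Barcodes were kept from 500 UMIs upward if mitochondrial UMIs did not pass 10%. Scrublet marked 27 of 5456 cells (0.495%), taken as not having worked. Clusters came from scanpy 1.11.5 and leidenalg 0.10.2 (2000 variable genes, 30 components, 15 neighbours, resolution 1). A cluster was named where at least 3 markers of a type were 2-fold higher at 20 CPM or more, more than of any other type, and its 10 leading genes by fold held more markers of that type than of any other. Ratios are log2 of CPM plus a pseudocount of 1, within a suffix, as the median over suffixes. A gene was called at 1.5-fold in each usable suffix, among 8240 genes of at least 5 CPM. With 1 library per group and unassigned suffixes no test was run. Of each role group the highest members and those with the largest and smallest ratios are named, and others to show the range. Of other replication genes the 2 most abundant and the 2 with the largest ratio are named. Scripts were tested on simulated data. Other cell filters, clusterings, pseudocounts, depths, scalings (TMM from edgeR 4.0.16) and leaving out each suffix were tried. Intervals are exact Poisson or Clopper-Pearson intervals at 95%. Some marker genes are not reported here.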

Additional observations from a re-analysis of the deposited data

Results flagged for a closer look

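The 208 barcodes left out by the mitochondrial limit, which only the run with all barcodes used, held member transcripts. Their 1775 member UMIs of 410256 came to 4327 CPM (4128 to 4533), with 4089, 3691, 5063 and 3927 CPM in suffixes 1 to 4, against 3855, 3190, 2239 and 2305 CPM in the kept cells. They were shallow, with a median of 1849 UMIs. The part of depth in this level was not tested.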

How the results depend on the processing

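No paired analysis was possible because the barcode suffixes carry no replicate numbers and no test was run. The cause of each shift below was not tested. Values follow in the order median log2 ratio of granulocyte precursor-like, neutrophil-like and monocyte-like cells, then of Mcm and of G2 and mitosis classes, where they moved. With all barcodes they were -0.16, 0.018, -2.48, 1.98 and 1.68, with 2 members called lower in granulocyte precursor-like cells and 2281 CPM in suffix 3. Without marked doublets and the 5% of cells with most UMIs, the neutrophil-like median was 0.38, the monocyte-like -1.71 and the Mcm median 2.17. Then 1 member was called lower in granulocyte precursor-like and 0 in neutrophil-like cells, the sums were 3654, 3053, 2006 and 2059 CPM, and 51.1%, 45.3%, 20.8% and 22.9% of cells had 5 or more members. At resolution 0.5 the stage medians were -0.19, -0.41 and -1.79, with 9 members lower in neutrophil-like cells. With cell cycle genes kept the neutrophil-like and monocyte-like medians were -0.018 and -1.62, with 3 members lower in granulocyte precursor-like cells. A pseudocount of 5 CPM gave -0.42 for granulocyte precursor-like cells, -1.60 for monocyte-like cells and 1.81 for Mcm classes, and 0 members lower in neutrophil-like cells. TMM scaling gave -0.37 and 0.16 for granulocyte precursor-like and neutrophil-like cells, 0 members lower in the latter, and 3624, 3128, 2351 and 2382 CPM. Stage levels from cells thinned to 2000 UMIs gave -0.33, -0.0095 and -1.75, with 0 members lower in neutrophil-like cells. The Mcm median was 1.54 with 1 or more Mcm UMIs, and the G2 and mitosis median 1.45 with 3 classes of cells. At 1000 UMIs these medians were 1.71 (16 members higher) and 1.201, and the shares with 5 or more members 24.96%, 19.5%, 10.1% and 11.7%. At 4000 UMIs they were 2.36 and 1.65, and 81.7%, 77.1%, 44.8% and 50.7%. Without thinning the shares were 77.5%, 77.5%, 42.0% and 46.5%. Leaving out each suffix gave medians of -0.49 to -0.41 in granulocyte precursor-like cells (13 to 15 members lower) and of 1.73 to 2.47 for Mcm classes, and 1 to 3 members lower in neutrophil-like cells (3 without suffix 3). Counts of called members cannot fall when a suffix is left out, because fewer suffixes must pass. The negative direction in monocyte-like cells, with 32 to 39 members lower, and the positive direction of Mcm and of G2 and mitosis classes held under each alternative run. Re-clustering changed the stages themselves: monocyte-like cells numbered 204 to 1356. Depth limits members under about 10 CPM, such as Brip1, whose values in a stage rest on few UMIs.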
